A study of Gossypium hirsutum with 6 samples.

Results

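The most abundant transcripts of unexposed cotton roots were followed into roots exposed to PS-COOH. They were taken as the identifiers of the Gohir. series whose mean over the 3 control libraries reached 200 FPKM (fragments of a transcript, divided by its length and by the depth of the library). Of 75376 such identifiers, among 81166 in the table, 208 reached that level. From these, 9 with an A04 or A05 code were left out because their PS-COOH mean was at least 2 times the control mean, which leaves 199 members (0.245% of the table). No identifier of the newGene series reached 200 FPKM in the control. The members were thus chosen by their control levels and, on A04 and A05, by the ratio of the groups. Their control levels and ranks are therefore given as a description.

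The libraries came from roots of upland cotton (Gossypium hirsutum). The control group received 0 mg/l and the other group 300 mg/l of PS-COOH for 9 days, with 3 libraries each. PS-COOH usually stands for polystyrene with carboxyl groups on its surface, a common laboratory model of plastic particles. The labels name no cultivar, particle size or plant age, and nothing in them tells whether the 3 libraries of a group are separate plants. The p-values then reflect only the spread among libraries, part of which may be technical.

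In a plant tissue a small set of genes supplies a large part of the messenger RNA. In roots such genes commonly encode ribosomal proteins, water channels, metallothioneins, lipid transfer proteins and defence-related proteins. Upland cotton is an allotetraploid, and each chromosome of its A subgenome has a counterpart of the same number in its D subgenome. The table pairs no identifier with a gene name. Of the 199 members, 0 matched a RefSeq table of 99454 cotton genes, so no function is given for any member and the root label could not be checked against marker genes. Members are called here by the chromosome code in their identifier and by their control rank, which is their place among all identifiers by control mean. In RNA from whole roots, fewer cells of a type and less RNA per cell cannot be told apart.

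The members summed to 93181 ± 3114 FPKM in the control and 103192 ± 2816 FPKM under PS-COOH (SD, n = 3 each). By library the sum was 96608, 90523 and 92411 FPKM for the control and 100496, 106115 and 102964 FPKM for PS-COOH. The groups did not overlap (exact two-sided permutation test, p = 0.1, the smallest that 3 against 3 libraries can give). Because FPKM is a relative measure, a larger sum is no sign of more RNA. The sum over all identifiers was higher too, at 562920 ± 4830 FPKM in the control and 603559 ± 6073 FPKM in PS-COOH (SD, n = 3 each). As a share of all summed FPKM the members held 16.99%, 16.18% and 16.48% in the control libraries and 16.85%, 17.47% and 16.98% in the PS-COOH libraries. These shares overlapped, with means of 16.6 ± 0.413% and 17.1 ± 0.327% (SD, n = 3 each, exact permutation p = 0.3). The 9 identifiers left out held 2.24 ± 0.0805% in the control and 5.01 ± 0.0937% in PS-COOH, so the share of members and left-out identifiers together went from 18.8% to 22.1%.

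Within the members, FPKM was concentrated in few identifiers, whose joint share was higher in PS-COOH. The 3 most abundant members held 14.4 ± 0.549% of the members' FPKM in the control and 16.1 ± 0.672% in PS-COOH (SD, n = 3 each, exact permutation p = 0.1). The third of them fell, so this is a net change. Of all summed FPKM, the members at 1000 FPKM or more held 4.55 ± 0.215% in the control and 4.98 ± 0.198% in PS-COOH. These shares overlapped (exact permutation p = 0.2). Members whose mean was higher in PS-COOH gained 17897 FPKM in sum, and 44.9% of this came from 5 members, 3 of them with a D13 code, 1 with A13 and 1 with D05. Members whose mean was lower fell by 7886 FPKM in sum, and a single D05 member made up 29.7% of this loss.

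The most abundant member, Gohir.A13G224300.v2.1 on A13, had control rank 1. It measured 7152, 6185 and 6233 FPKM in the control libraries and 8502, 9650 and 9160 FPKM in the PS-COOH libraries. The groups did not overlap, and the gene rose by 0.48 ± 0.061 on the log2(FPKM + 1) scale (SE; limma, Benjamini-Hochberg adjusted p = 8.2e-05). It kept rank 1 in PS-COOH. Gohir.D13G229100.v2.1, on D13 and of control rank 2, measured 4454, 3855 and 3934 FPKM in the control and 6420, 7502 and 6942 FPKM in PS-COOH. It too was higher in every PS-COOH library and rose by 0.77 ± 0.064 (SE; limma, adjusted p = 2.2e-06), keeping rank 2. Quantile normalization sets the first-ranked and the second-ranked identifier of every library to a common value, and under it the difference of these 2 members is 0.

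The third in control rank, Gohir.D05G366400.v2.1 on D05, went the other way. It measured 2966, 2768 and 2877 FPKM in the control and 488, 527 and 569 FPKM in PS-COOH, so even its highest PS-COOH library lay far below its lowest control library. It fell by 2.44 ± 0.054 on the log2(FPKM + 1) scale (SE; limma, adjusted p = 5.9e-11) and moved from rank 3 to rank 56. On that log2 scale no other member changed by as much. Gohir.A10G165300.v2.1, on A10 and of control rank 7, measured 2083, 1952 and 1993 FPKM in the control and 1149, 1230 and 1239 FPKM in PS-COOH. It fell by 0.74 ± 0.044 (SE; limma, adjusted p = 1.4e-07) to rank 20.

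**Figure D1:**
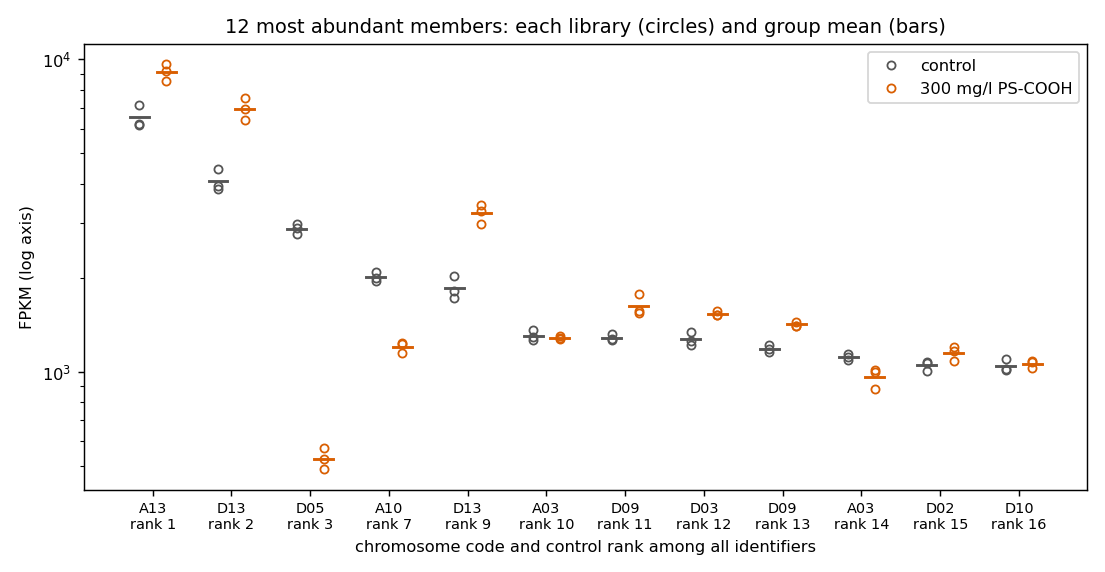
FPKM (log axis) of the 12 most abundant members in each library, with control in grey and 300 mg/l PS-COOH in orange; circles are libraries and bars the mean of 3. The D05 member of rank 3 dropped from a mean of 2870 to 528 FPKM, the A10 member of rank 7 was lower in all PS-COOH libraries, and the A13 member of rank 1 and the D13 members of ranks 2 and 9 were higher in all of them.

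Of the other 8 members above 1000 FPKM in the control, the D13 member of rank 9 rose most. It measured 2028, 1727 and 1819 FPKM in the control and 2973, 3429 and 3262 FPKM in PS-COOH, a ratio of means of 1.73. A pair of D09 members and a D03 member rose on the deposited values, but not under quantile normalization. The D09 member of rank 11 went from 1286 ± 33.4 to 1628 ± 124 FPKM, and that of rank 13 from 1188 ± 29.4 to 1419 ± 23.0 FPKM (SD, n = 3 each). The D03 member of rank 12 went from 1273 ± 64.9 to 1537 ± 24.1 FPKM. Under quantile normalization the differences of ranks 11, 12 and 13 were -0.02, -0.10 and -0.13 on the log2 scale, and those of ranks 12 and 13 passed as falls (limma, adjusted p = 0.011 and 0.0061). The A03 member of rank 14 fell from 1116 ± 22.8 to 965 ± 72.9 FPKM. The other 3, on A03, D02 and D10, did not pass the test, with log2 differences of -0.02, 0.13 and 0.03. The A03 member of rank 10 measured 1307 ± 51.9 and 1287 ± 13.0 FPKM, so its means differed by less than the SD of its control libraries.

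All 199 members passed the filter of 1 FPKM in 3 libraries and were tested in a limma fit over 45258 identifiers. At an adjusted p under 0.05, 79 members rose and 61 fell, and 59 did not pass. Over all tested identifiers 15.7% rose and 15.1% fell. The control values in this contrast are those that chose the members, so nothing is read from the difference between these shares. Among the 332 identifiers of the same series with a control mean from 100 to under 200 FPKM (without the A04 and A05 identifiers at least doubled), 114 rose and 118 fell. The median difference was 0.03 over the members, -0.02 over that lower range and -0.02 over all tested identifiers, on the log2(FPKM + 1) scale.

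Which direction was more frequent among the members depended on the scaling. With all libraries scaled to the same summed FPKM, 61 members rose and 89 fell, and under quantile normalization 55 rose and 99 fell. Median-ratio scaling gave 82 and 58. A core kept its call under the deposited values and these 3 scalings, with 53 members that rose and 58 that fell. The members of ranks 1 and 2 could not be in it, because quantile normalization sets their difference to 0. Another 7 members were called in opposite directions by different scalings, all of them between control rank 12 and 29, and their ratio of means lay between 1.09 and 1.34.

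Few members changed 2-fold. Among them 1 member rose and 4 fell by 1 or more in log2(FPKM + 1), counted here as 2-fold, where 1.86% and 0.572% of all tested identifiers did so. The count of rises is limited by the rule, which removed 9 doubled A04 and A05 identifiers, and with these put back 10 of 208 (4.81%) rose 2-fold. Called changes had a median size of 0.33 among rises and 0.34 among falls. Of the called members, 66 rises and 48 falls were under 1.5-fold on that scale. Replicates lay close together, with a median coefficient of variation of 3.47% in control and 3.23% in PS-COOH roots. The 2 groups were free of overlap in 86 members that were higher and 69 that were lower in PS-COOH. Over all tested identifiers this held for 21.1% in the higher direction, 23.4% in the lower and 44.5% in all.

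**Figure D2:**
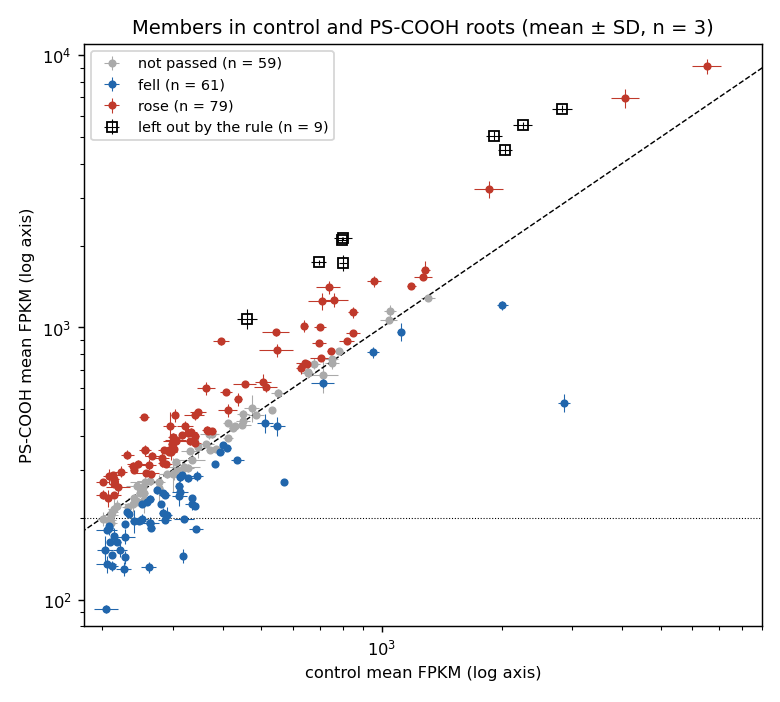
Mean FPKM of each member in PS-COOH against control (both axes log; bars are SD, n = 3), coloured by the limma call; squares are the 9 identifiers left out, the dashed line marks equality and the dotted line 200 FPKM. Most of the 199 points lie near the line, the D05 member of rank 3 lies farthest below it, and the left-out identifiers lie above.

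The member with the largest rise was on D04, with control rank 71. It measured 415, 377 and 396 FPKM in the control and 860, 899 and 910 FPKM in PS-COOH, a difference of 1.17 ± 0.045 (SE; limma, adjusted p = 4.7e-09). The PS-COOH libraries were all above 2 times the control libraries' highest value, and the member climbed to rank 31. A D05 member of rank 30 followed, with 774, 679 and 758 FPKM in the control and 1334, 1489 and 1396 FPKM in PS-COOH (difference 0.93 ± 0.055, SE). The third was a member with a scaffold code, of rank 153, which went from 255 ± 7.30 to 468 ± 12.01 FPKM (SD, n = 3 each) and climbed to rank 65. The next 7 rises had differences from 0.66 to 0.82 on the log2(FPKM + 1) scale, and they carried D13 codes in 3 cases, D05 in 2, D11 in 1 and A04 in 1.

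Among the falls, that of D05 rank 3 was followed by 3 of about equal size. The D13 member of rank 204 measured 214, 212 and 188 FPKM in the control and 90.3, 90.8 and 96.1 FPKM in PS-COOH. The D06 member of rank 104 measured 315, 321 and 317 FPKM in the control and 152, 136 and 146 FPKM in PS-COOH. The A09 member of rank 45 measured 567, 579 and 563 FPKM in the control and 271, 268 and 269.9 FPKM in PS-COOH. Their differences were -1.14, -1.13 and -1.08 on the log2(FPKM + 1) scale, and in each the groups lay far apart. The D10 member of rank 146 came next, from 261 ± 11.6 to 132 ± 6.27 FPKM (SD, n = 3 each). The A10 member of rank 86 went from 343 ± 14.6 to 182 ± 2.66 FPKM.

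Rises and falls were counted along the range of control abundance. Of the 90 members from 200 to under 300 FPKM, 32 rose and 35 fell, and of the 64 from 300 to under 500 FPKM, 22 rose and 18 fell. Of the 33 members from 500 to under 1000 FPKM, 19 rose and 5 fell, and of the 12 at 1000 FPKM or more, 6 rose and 3 fell. The median difference in these classes was -0.04, 0.01, 0.14 and 0.19 on the log2(FPKM + 1) scale. The classes were cut on control values that enter the contrast, and no test was made between them. Of the members that kept their call under every scaling, 1 rise and 3 falls were at 1000 FPKM or more, and 10 rises and 5 falls were from 500 to under 1000 FPKM. The rises of ranks 1 and 2 could not be kept, because quantile normalization sets their difference to 0.

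**Figure D3:**
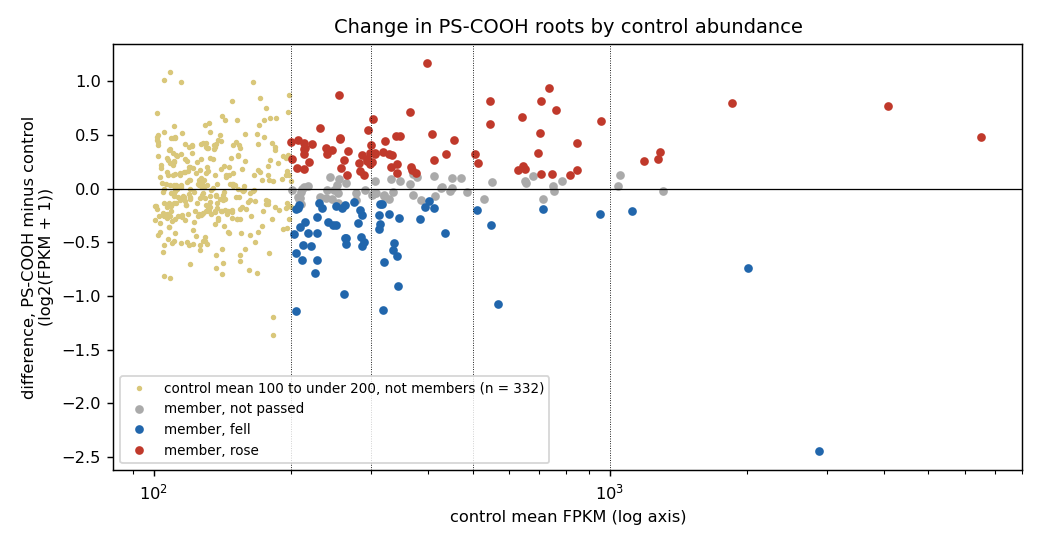
Difference between PS-COOH and control on the log2(FPKM + 1) scale against control mean FPKM (log axis) for the 199 members, coloured by call, and for 332 identifiers from 100 to under 200 FPKM; dotted lines mark 200, 300, 500 and 1000 FPKM. On the deposited values, rises and falls are about equally frequent below 500 FPKM (54 and 53 members), and rises outnumber falls above it (25 and 8). Kept under every scaling were 10 rises and 5 falls from 500 to under 1000 FPKM, and 1 rise and 3 falls at 1000 FPKM or more. The rises of ranks 1 and 2 could not be kept, because quantile normalization sets their difference to 0.

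At the lower edge of the range, the 5 members just above 200 FPKM had control means from 200.1 to 205 FPKM. In PS-COOH they averaged 92.4, 152, 199, 243 and 270.5 FPKM. The 5 identifiers just below had control means from 198 to 199.8 FPKM and PS-COOH means of 210, 177, 178, 54.3 and 162 FPKM. Both sides of the threshold thus held identifiers with large and with small differences.

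In PS-COOH, 167 members still averaged 200 FPKM or more and 32 averaged less. Of these 32, 27 fell by the test, and 23 had started under 250 FPKM. Members can only leave the range, so this count is set beside the identifiers that entered it. There were 42 of the same series that averaged under 200 FPKM in the control and at least 200 FPKM in PS-COOH, of which 39 rose. In all, 208 identifiers of the series were at or above 200 FPKM in the control and 218 in PS-COOH. The highest of the entrants was on A04, from 161 ± 6.36 to 573 ± 26.0 FPKM (SD, n = 3 each). It is 1 of 2 entrants with an A04 or A05 code that at least doubled, a kind that the rule left out of the members. In 162 members all 6 libraries were at 200 FPKM or more, and the lowest value of any member was 90.3 FPKM.

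By rank among all identifiers, 68 members moved up, 126 moved down and 5 kept their place. The median move was 22 places. Control ranks were chosen to be high, so the excess of downward moves is no result. Of the members that rose by the test, 10 still lost places. The largest climb was 88 places, by the scaffold member of rank 153. The longest drop was that of the D13 member from rank 204 to 637, followed by the D10 member from rank 146 to 393 and the D06 member from rank 104 to 342. Of the 10 most abundant members in the control, 7 were among the 10 most abundant members in PS-COOH, and of the first 50, 44 were.

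There were 95 members with an A code and 102 with a D code, which is 2.63 per 1000 identifiers of each subgenome, and 2 with a scaffold code. With the 9 left-out identifiers, all of the A subgenome, A held 2.88 per 1000. Of the A members 40 rose and 25 fell, and of the D members 38 rose and 35 fell. Beside this, 15.7% of all tested identifiers rose and 15.1% fell. The 9 left-out A identifiers all rose, so the A count depends on the rule, and no test was made between the subgenomes. Under all 4 scalings, 26 A and 26 D members kept a rise, and 24 A and 33 D members kept a fall.

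In FPKM the D members held more. A codes made up 44.8%, 44.9% and 44.9% of the members' summed FPKM in the control and 44.1%, 43.8% and 44.3% in PS-COOH. All PS-COOH libraries were lower, with a difference of means of -0.81 percentage points (exact two-sided permutation test, p = 0.1, the smallest possible). The direction turns when the left-out identifiers are included. With them put back, the A share was 51.4 ± 0.120% in the control and 56.7 ± 0.402% in PS-COOH (SD, n = 3 each). Without the most abundant member it was 40.7 ± 0.275% and 38.6 ± 0.369%. Over all identifiers with an A or D code, the A share of summed FPKM was 49.7 ± 0.0325% and 50.8 ± 0.0862%.

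Every chromosome of both subgenomes held members, from 2 on D03 to 19 on D05. Relative to the identifiers on each chromosome, D10 held 4.60 per 1000, D02 4.24, D05 4.19 and A10 4.04, and D03 held 0.972 per 1000. These densities depend on the rule. With the left-out identifiers put back, A04 went from 3.22 to 5.91 per 1000, above D10, and A05 from 3.56 to 4.45. Taken as pairs of equal number, A05 and D05 together held 35 members, A10 and D10 held 25, and A13 and D13 held 20.

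The share of the members' FPKM carried by a code moved far beyond the spread between libraries in some codes and little in others. On D13 it moved by 3.53 percentage points, with SDs of 0.274 in the control and 0.525 in PS-COOH. On A06 it moved by -0.042 points, with SDs of 0.054 and 0.071. In 25 of the 27 codes, the scaffold code included, the shares of the groups did not overlap (92.6%). Without the most abundant member of each code, this count was 19. Lack of overlap was common in these data. It held for the ratios of 80.9% of all pairs of members and for 44.5% of single tested identifiers. The smallest p that the exact permutation test can give is 0.1, so no code could pass 0.05. These shares add to a constant, and a gain in some codes lowers the others. D13 gained most, from 9.83 ± 0.274% to 13.4 ± 0.525%, and A13 went from 9.65 ± 0.325% to 11.5 ± 0.326% (SD, n = 3 each). In the control D05 held the largest share, 10.4 ± 0.0134%, and in PS-COOH it held 8.67 ± 0.0667%. A10 went from 7.23 ± 0.0299% to 6.26 ± 0.0301%.

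Single members decided several of these shares. On A13, the member of rank 1 made up 72.5% of the code's control FPKM, and without it the A13 shares of the groups overlapped. On D05 the member of rank 3 made up 29.5% of the control FPKM. The D05 members summed to 0.921 times the control level in PS-COOH with it and to 1.23 times without it. On A10 the ratio was 0.960 with the member of rank 7 and 1.11 without it. Without that member the A10 share was 5.07% in the control and 5.10% in PS-COOH, and the groups overlapped. All members together went from 93181 to 103192 FPKM, so a ratio of sums above 1 need not be a gain in share. On D05 without the member of rank 3 the share did rise, from 7.35% to 8.16%, and the groups did not overlap. On D13 the ratio of sums was 1.51 with the most abundant member and 1.35 without it. The 1.35 still counts the members of ranks 9 and 33, which lie next to that member. These 3 together went from 6647 ± 529 to 11424 ± 854 FPKM (SD, n = 3 each). All 10 D13 members went from 9168 ± 564 to 13802 ± 913 FPKM, so the remaining D13 members summed to less in PS-COOH.

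**Figure D4:**
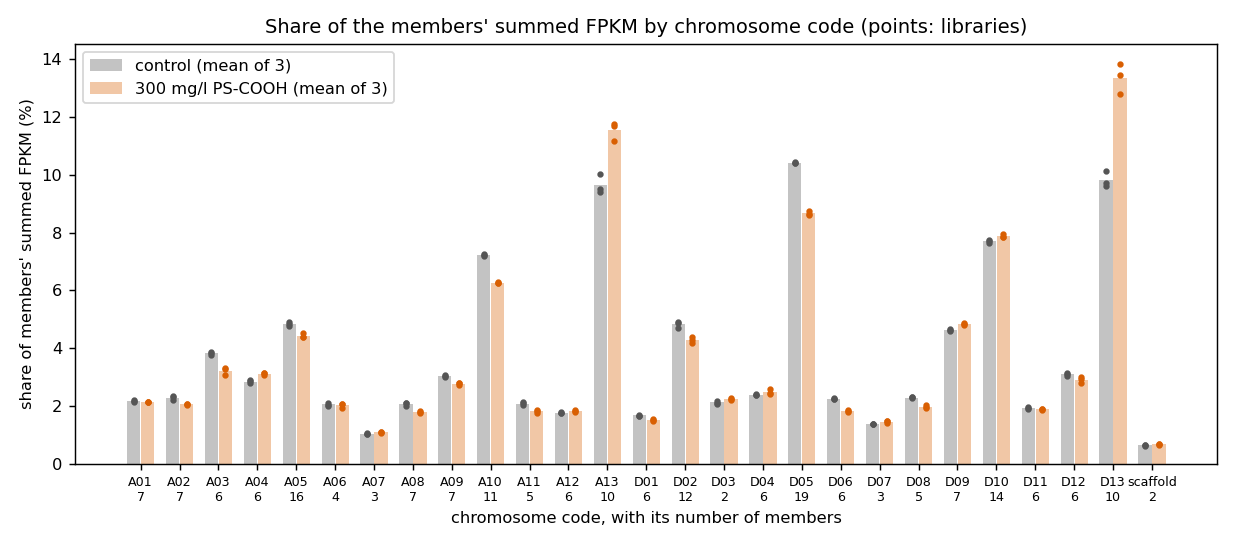
Share of the members' summed FPKM (%) by chromosome code, with the number of members under each code; bars are means of 3 libraries and points the libraries. D13 went from 9.83% to 13.4% and A13 from 9.65% to 11.5%, while D05 went from 10.4% to 8.67% and A10 from 7.23% to 6.26%.

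On the deposited values, calls were uneven in some codes, beside 15.7% of all tested identifiers that rose and 15.1% that fell. On A13, 6 of 10 members rose and 0 fell, although 4 did not pass, and on A12 3 of 6 rose and 0 fell. On D09, 5 of 7 rose and 2 fell, and on A01 the counts were the same. On D06, 4 of 6 fell and 1 rose, and on D08 3 of 5 fell and 0 rose. On A08, 4 of 7 fell and 2 rose. On D02, 5 of 12 fell and 2 rose. Not all of these calls were kept under the 4 scalings. Among those not kept were rises on D09, A01 and A13 and falls on A08 and D02. The A13 rise not kept was that of rank 1, whose difference quantile normalization sets to 0. The codes hold too few members for these counts to be compared, and no test was made.

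Some members lay close to each other. In the number order of their identifiers, which is taken to follow position, 43 members formed 19 groups in which neighbours were at most 5 places apart. Of these groups 14 held 2 members and 5 held 3, with 13 directly adjacent pairs in all. Neighbouring genes can be near-identical copies whose reads cannot be told apart, and gene sequences were not used here, so values of single neighbours are uncertain. In 4 groups every member rose, and in 1 every member fell. In 3 groups some rose and some fell, in 10 some were called and others did not pass, and in 1 none passed.

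The D13 group of ranks 33, 2 and 9 consists of 3 directly adjacent members and had the narrowest range of changes among the 5 groups of 3. Its sum went from 6647 ± 529 to 11424 ± 854 FPKM (SD, n = 3 each), a ratio of 1.72, and the differences of its members lay between 0.77 and 0.82 on the log2(FPKM + 1) scale. The member of rank 9 stood at 0.455 ± 0.0072 of that of rank 2 in the control and at 0.463 ± 0.0064 in PS-COOH, and these ratios overlapped (SD, n = 3 each, exact permutation p = 0.2). The member of rank 33 stood at 0.172, 0.173 and 0.176 of that of rank 2 in the control libraries and at 0.181, 0.178 and 0.180 under PS-COOH, which did not overlap (exact permutation p = 0.1). In the A09 group of ranks 53 and 36 the ratio overlapped between groups, at 0.725 ± 0.018 in the control and 0.719 ± 0.036 in PS-COOH.

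Other neighbours parted. On A09, the member of rank 45, which fell, lies 2 places from one of rank 187, which rose from 213 to 267 FPKM. The lesser of them stood at 0.383, 0.358 and 0.382 of the greater in the control libraries and at 0.993, 0.972 and 1.01 under PS-COOH. On A10, 3 adjacent members of ranks 27, 86 and 59 differed in that the middle one fell by 0.91 and the outer ones had differences of -0.03 and 0.01 and did not pass. The middle one stood at 0.456 ± 0.021 of the first in the control and 0.247 ± 0.0096 in PS-COOH. On A01, a pair 2 places apart held 1 member that fell by 0.24 and 1 that rose by 0.44. On D05, members of ranks 49 and 26 rose by 0.82 and 0.73, and that of rank 92, lying between them, had a difference of -0.03 and did not pass. Over the 19 groups, 19 of 24 ratios (79.2%) of a member to the most abundant of its group did not overlap between control and PS-COOH. Over all 19701 pairs of members this was so for 80.9%, so the share among neighbours was near that of any pair.

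**Figure D5:**
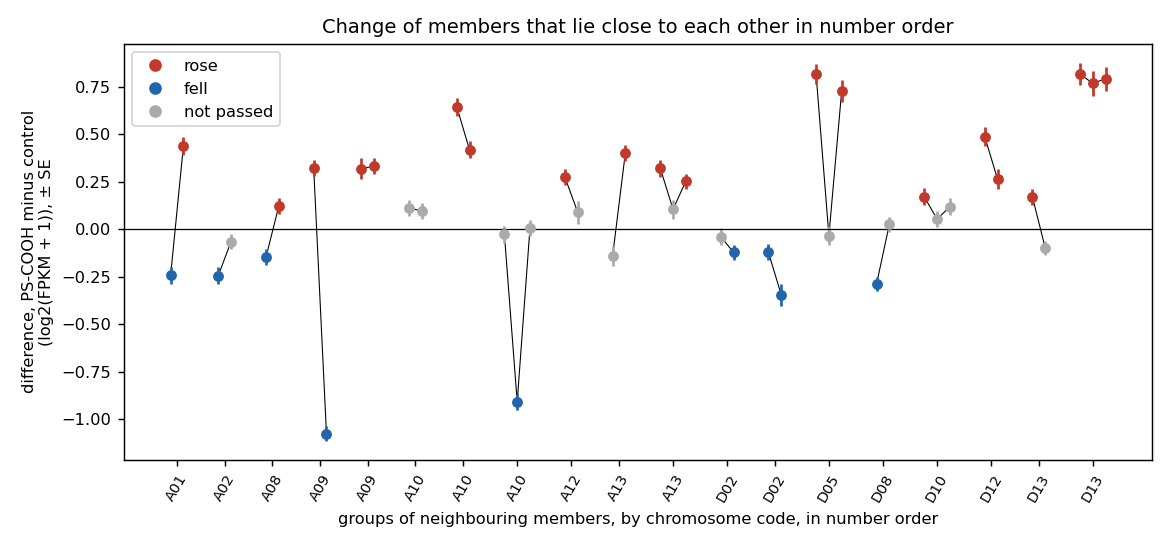
Difference between PS-COOH and control on the log2(FPKM + 1) scale (± SE) for the 43 members in 19 groups of neighbours, joined by lines and coloured by call. The 3 D13 members at the right lie between 0.77 and 0.82, while the A09 pair of ranks 187 and 45 spans 1.40 and the A10 trio of ranks 27, 86 and 59 spans 0.92.

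Libraries of a group ranked the members alike. Across the 199 members, Spearman's rho was 0.987 to 0.994 between libraries of a group and 0.843 to 0.865 between libraries of different groups; members are not independent replicates. Small shifts were shared by many members within a group. Control replicate 1 held the highest of the control values in 121 members and control replicate 2 the lowest in 129. In the PS-COOH group, replicate 2 was highest in 103 members and replicate 1 lowest in 97. Without control replicate 1, 81 members rose and 57 fell, and without control replicate 2 the counts were 72 and 58. Without PS-COOH replicate 2 they were 75 and 60, and without PS-COOH replicate 1 they were 76 and 57. The least reproducible members were an A05 one of rank 118, with 273, 337 and 259 FPKM in PS-COOH, and a D04 one of rank 31, with 620, 774 and 609 FPKM, and both did not pass the test.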

How the data were processed

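The authors deposited 1 table of FPKM values with 1 column for each of the 6 libraries, all of which were used. Per the labels' protocols the libraries were read as 150-bp paired ends. The submitters' processing notes name HISAT2 and StringTie without versions. The genome build, the annotation and how multi-mapping reads were handled is not stated in the labels. Such reads can shift FPKM between similar genes, and FPKM makes no correction for a few abundant genes that change.

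Libraries were grouped by title. A limma moderated test (limma 3.58.1, R 4.3.3) with a trended prior was run on log2(FPKM + 1) over the 45258 identifiers that reached 1 FPKM in 3 or more libraries, with Benjamini-Hochberg adjustment over all of them, and checked on simulated data. Shares per library were compared by exact two-sided permutation tests (scipy 1.17.1), which cannot go below 0.1. Counts of reads are not in the table. Relative depth, read from values under 0.1 FPKM, was 0.975 to 1.10 of control replicate 1, and no counting interval is given.

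Members and comparisons were chosen with earlier results of these data known. Identifiers are printed for the 2 members that rose and the 2 that fell with the highest control means and no overlap between groups. Other members were picked by control rank, by the 10 largest called rises and falls, or by closeness to 200 FPKM; those named for their neighbours or spread were chosen after their values were seen. The planned gene lists could not be formed without names. Replicate numbers were checked for pairing. Alternatives were pseudocounts of 0.1 and 0.5, filters, scalings, priors, library weights, a replicate block, leaving out each library and other member thresholds.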

Additional observations from a re-analysis of the deposited data

How the results depend on the processing

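The 79 rises and 61 falls changed by less than 1.5 times under both other pseudocounts, the filters, median-ratio scaling, the robust prior, array weights and the scaling to a common sum (61 and 89), which was chosen after the data were seen. Quantile normalization gave 99 falls, with 0 rises and 7 falls reaching 2-fold. It sets the differences of the A13 and D13 members of ranks 1 and 2 to 0; the other alternatives kept the calls of the 4 members printed by identifier. A threshold of 100 FPKM gave 193 rises and 179 falls, 3 and 7 of them 2-fold. A threshold of 500 FPKM gave 25 and 8, 0 and 2 of them 2-fold. More or fewer identifiers were counted, but the balance of rises and falls changed too. The median difference was -0.003 at 100 FPKM, 0.03 at the main threshold and 0.14 at 500 FPKM, on the log2 scale. With the left-out identifiers put back, 10 members rose 2-fold. Members chosen by the mean of all 6 libraries gave 100 rises and 45 falls, so the balance also depends on which libraries choose the members. Leaving out each library gave 71 to 81 rises, 53 to 60 falls, 1 rise and 4 or 5 falls of at least 2-fold. Scaling to a common sum moved the median of all tested identifiers by -0.08 on the log2 scale, from -0.02 to -0.10. With a replicate block 74 members rose and 57 fell. Deviations of same-numbered libraries correlated at -0.073, -0.061 and -0.0073, so no pairing by number was seen. Such correlations cannot exclude that same-numbered libraries were handled together. The gain in the members' share of all FPKM, 0.545 percentage points, was 3.31 with the left-out identifiers put back and 1.003 for members chosen by all 6 libraries, and the change in the A share, -0.81 points, was 5.29 and, without the most abundant member, -2.07. Absolute depth is unknown.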
